A study of Mus musculus with 6 samples.

Results

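The 10 neuronal regeneration-associated genes followed here were *Sox11*, *Sox4*, *Myc*, *Gap43*, *Basp1*, *Sprr1a*, *Ecel1*, *Gadd45a*, *Gadd45b* and *Gadd45g*, which made up 10 of the 55573 gene rows in a table of raw read counts. They were chosen by name, through the mouse symbols of their Ensembl identifiers. The cells came from retinas of adult C57BL/6J mice, whose eyes had received AAV2, an adeno-associated virus, in the vitreous. In the control group (GFP, 3 libraries) the virus carried *GFP*, and in the *Ezh2* overexpression group (Ezh2, 3 libraries) it carried *Ezh2*, the gene of a histone H3 methyltransferase. All mice of both groups underwent optic nerve crush (ONC) 2 weeks after the injection, and cells were sorted 3 days after the ONC. Sorting took live cells positive for CD90.2, the product of *Thy1*, as a means to enrich retinal ganglion cells (RGCs), which send their axons through the optic nerve to the brain. No uninjured group enters this comparison, so the values describe injured retinas with and without *Ezh2* overexpression, and not the response to injury.

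When the axon of a peripheral sensory neuron is cut, the cell body switches on a set of genes that accompany regrowth, known as regeneration-associated genes. The set holds transcription factors such as Sox11, membrane proteins of the growth cone such as GAP-43 and CAP-23 (encoded by *Basp1*), and injury-induced proteins such as Sprr1a. RGCs mount only part of this programme after ONC and regrow few axons, which is why the genes are followed in optic nerve studies. The comparison asks whether *Ezh2* overexpression moves their mRNA levels in the sorted cells.

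The libraries were examined first. Total counts ranged from 30569933 to 35971192 per library, and the 10 genes held between 14 and 2183 counts in each. *Ezh2* was at 28.8, 34.6 and 33.0 CPM (counts scaled to a library total of 1000000) in the GFP libraries and at 78.0, 65.3 and 104.8 CPM in the overexpressing ones (Ezh2 replicates 1, 2 and 3), so that the groups did not overlap. Ezh2 replicate 3 stood apart from the other libraries, and the study's heatmaps show only the other 5, so these 5, without it, made up the main comparison. Ezh2 replicate 3 is given apart below, with the fit to all 6 libraries beside it. The labels do not say whether replicates came from separate animals, so p values measure the spread between these libraries only.

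The labelled cell type was only weakly visible in its defining markers. *Pou4f2*, a transcription factor that marks most RGCs, had 0 to 3 counts per library, *Pou4f1* 0 to 19 and *Pou4f3* 2 to 13. *Rbpms*, an RNA-binding protein of RGCs, had 501 to 671 counts. The list of 15 RGC markers took between 0.0156% and 0.0202% of all counts, and *Thy1*, the antigen used in the sort, made up 52.8% to 57.4% of those. In contrast, 10 Muller glia markers took between 2.15% and 2.86% of all counts. On a scale per kilobase of exon (RPKM), *Glul*, the glutamine synthetase of Muller glia, averaged 2936 in the control group and *Rbpms* 2.65. The values below therefore describe a mixed population of CD90.2-sorted retinal cells, and in such bulk samples fewer cells of a type and less RNA per cell cannot be told apart.

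*Ezh2* overexpression was accompanied by higher mRNA levels of 5 of the 10 genes. *Sprr1a*, *Gadd45g*, *Sox4*, *Sox11* and *Myc* rose, by 2.51-, 2.34-, 1.64-, 1.56- and 1.52-fold. None was called lower by edgeR, DESeq2 or limma-voom, and 0 of the 9 genes with an unadjusted edgeR p below 0.05 were lower. Calls needed a change of more than 1.5-fold together with an adjusted p below 0.05, from edgeR's quasi-likelihood test and Benjamini-Hochberg adjustment over all 20241 tested genes. In the same fit 3.8% of all tested genes were called, 2.52% higher and 1.28% lower. Without the fold change threshold, 7 of the 10 genes had an edgeR adjusted p below 0.05, all higher, beside 10.1% of all tested genes that did so upward and 17.8% in either direction, the added genes being *Gadd45a* and *Ecel1*. The median log2 fold change was 0.55 over the 10 genes and -0.0078 over all tested genes. The study had singled out *Sprr1a*, *Gadd45g*, *Sox11* and *Myc* as rising in these libraries. All 10 genes were also chosen with earlier results of these data known. None of the 5 calls, nor the counts and median of the list, is therefore independent of how the list was made.

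**Figure D1:**
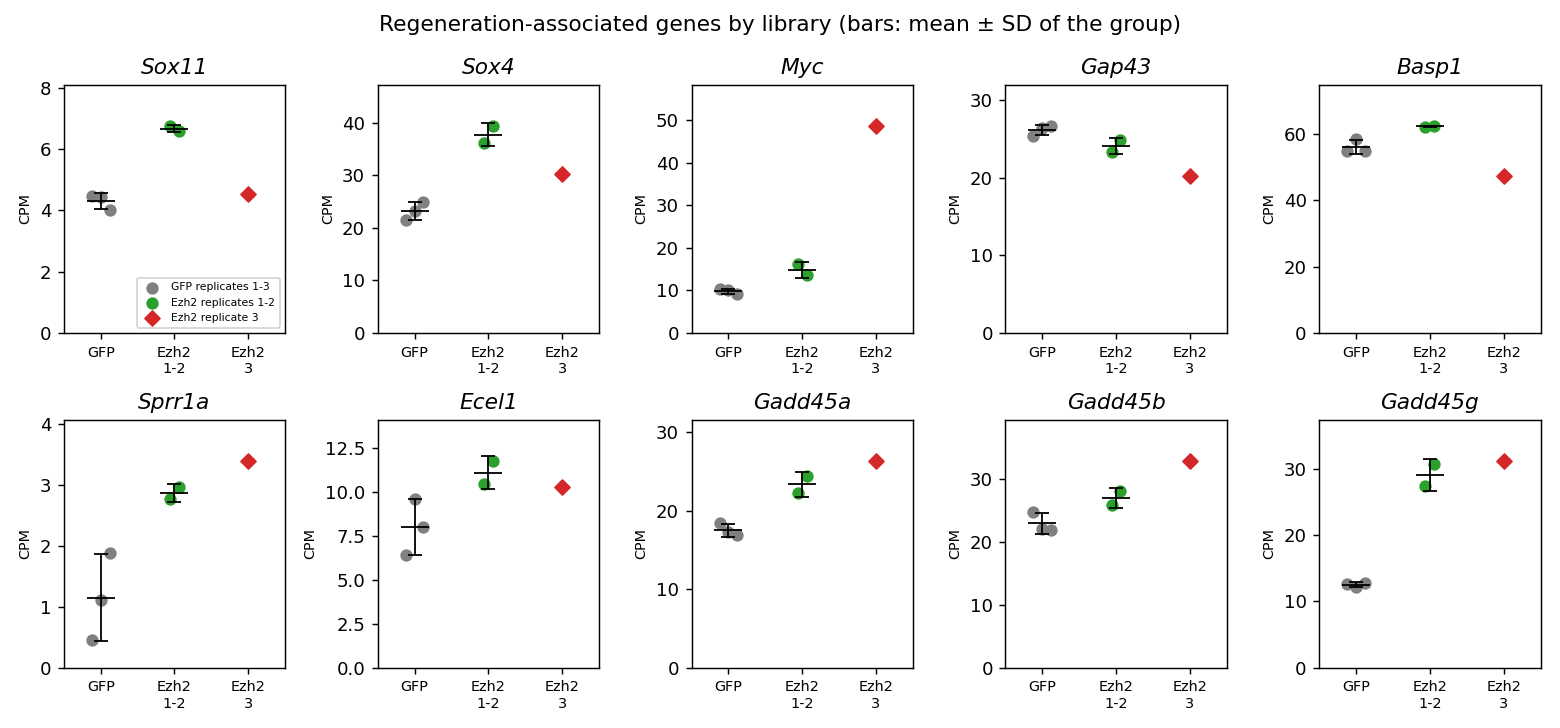
CPM of each gene (vertical axes, starting at 0) in GFP replicates 1 to 3 (grey circles), Ezh2 replicates 1 and 2 (green circles) and Ezh2 replicate 3 (red diamond), with bars for the mean ± SD of the circles. *Gadd45g* lies between 27.4 and 31.2 CPM in the Ezh2 libraries and between 12.1 and 12.8 CPM in the GFP libraries, and *Myc* in Ezh2 replicate 3 lies at 48.5 CPM, far from the other libraries.

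In the 5 libraries the groups did not overlap for any of the 10 genes. For 9 genes both Ezh2 libraries lay above the 3 GFP libraries, and for *Gap43* both lay below. Among all tested genes 44.9% did not overlap, with 21.5% above and 23.4% below. With all 6 libraries, 8 genes lay above and *Gap43* below, beside 14.9% and 19.3% of tested genes, and *Basp1* overlapped. Ezh2 replicate 3 exceeded both other Ezh2 libraries for 5 genes (*Myc*, *Sprr1a* and the 3 *Gadd45* genes) and fell short of both for the other 5. It was the highest of the 6 libraries for 5 of the 10 genes and the lowest for 2. Among all tested genes it was the highest for 24.8% and the lowest for 38.4%. In the fit to all 6 libraries, *Sox4* and *Gadd45g* were called, 2 of 10 genes, beside 2.52% of tested genes called, 1.62% higher and 0.902% lower. The coefficient of variation between replicates that edgeR estimated over all genes was 0.184 there and 0.0846 in the 5 libraries. *Sprr1a* and *Myc* lost their calls at larger log2 fold changes than in the 5 libraries, 1.44 and 1.47, and *Sox11* at a smaller one, 0.50.

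**Figure D2:**
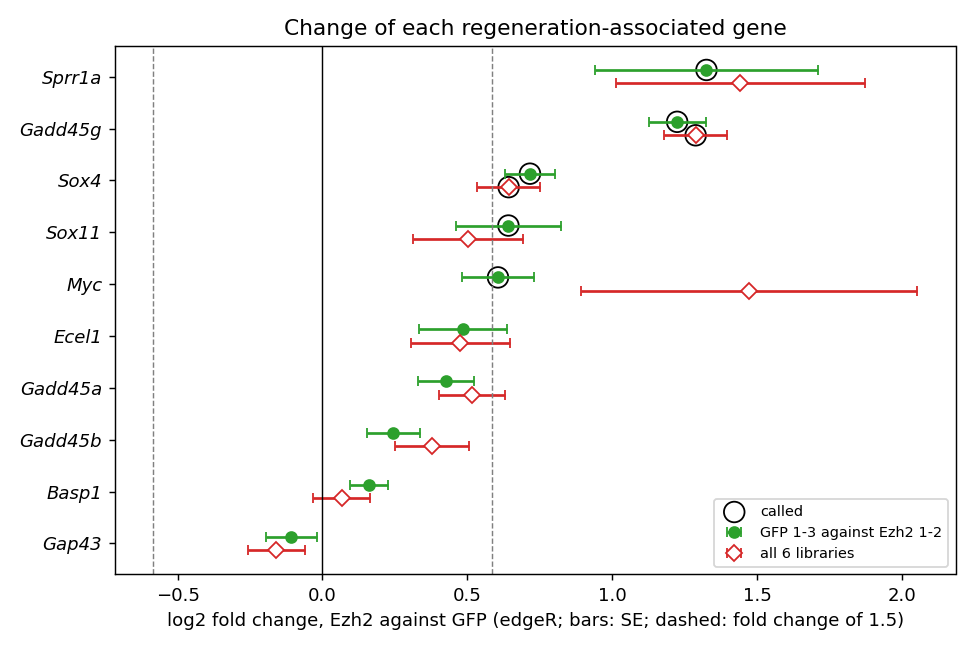
Log2 fold change of Ezh2 against GFP (horizontal axis) for each gene, in the 5 libraries (green circles) and in all 6 (open red diamonds), with bars for the SE, dashed lines at a fold change of 1.5 and black rings around called values. The widest gap between the estimates is that of *Myc*, at 0.61 and 1.47, and the rings on *Sox4* and *Gadd45g* are present in both fits.

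Sox11 and Sox4 are closely related SoxC transcription factors, which are active in developing neurons, and forced *Sox11* promotes axon regrowth in some RGC types. *Sox4* (ENSMUSG00000076431, chromosome 13, 28948919 to 28953713, minus strand; coordinates are those of GRCm38 throughout) was at 21.4, 23.2 and 24.9 CPM in the 3 control libraries and at 36.2, 39.3 and 30.3 CPM in Ezh2 libraries 1 to 3. Every Ezh2 library was above every GFP library, and Ezh2 replicate 3 was the closest to them. In the 5 libraries the means were 23.2 ± 1.72 CPM (SD, n = 3) and 37.7 ± 2.21 CPM (SD, n = 2). This gave a log2 fold change of 0.72 (SE 0.09, edgeR adjusted p = 3e-07). In all 6 libraries the change was 0.64 (SE 0.11, edgeR adjusted p = 0.0134). An antisense gene, *Gm26735*, overlaps an exon of *Sox4* but held at most 9 counts in a library.

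*Sox11* (ENSMUSG00000063632, chromosome 12, 27334264 to 27342574, minus strand) had 137, 140 and 123 counts in GFP replicates 1 to 3, or 4.48, 4.42 and 4.002 CPM. It had 217, 231 and 163 counts in Ezh2 replicates 1 to 3, or 6.74, 6.59 and 4.53 CPM. Ezh2 replicates 1 and 2 were clearly above the control group, whereas Ezh2 replicate 3 sat just above its upper edge, at 1.05-fold of the GFP mean. The log2 fold change in the 5 libraries was 0.64 (SE 0.18, edgeR adjusted p = 0.0111). The call was lost without Ezh2 replicate 1 or 2, with edgeR adjusted p of 0.0661 and 0.0736, and with all 6 libraries, at 0.50 (SE 0.19, edgeR adjusted p = 0.15). Per length, *Sox11* made up 9.73% ± 1.15 (SD, n = 3) of the summed *Sox4* and *Sox11* level in GFP and 8.83% ± 0.877 (SD, n = 3) in Ezh2 libraries, which overlapped (exact permutation test, two-sided, p = 0.4).

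No other gene of the Sox family was called by edgeR, DESeq2 or limma-voom. Of 17 further Sox genes 11 passed the filter on low counts, with a median log2 fold change of -0.15. Of these, 5 had an unadjusted edgeR p below 0.05, all lower, and 2 had one after adjustment. None lay above the control group without overlap, beside 21.5% of all tested genes, while 7 lay below it, beside 23.4%. *Sox8*, the most abundant of those not called, was 227 ± 6.73 CPM (SD, n = 3) in GFP and 205 ± 2.84 CPM (SD, n = 2) in Ezh2 libraries. *Sox12*, the remaining SoxC gene, was 7.88 ± 0.712 CPM (SD, n = 3) in GFP and 6.62 ± 0.405 CPM (SD, n = 2) in Ezh2 libraries 1 and 2 (edgeR adjusted p = 0.332). It was named after its values were seen.

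*Myc* encodes a transcription factor that drives growth and ribosome production. *Myc* (ENSMUSG00000022346, chromosome 15, 61985391 to 61990374, plus strand) reached 10.3, 9.98 and 9.11 CPM in the 3 control libraries and 16.1, 13.5 and 48.5 CPM in Ezh2 libraries 1 to 3. The groups did not overlap, but the last value was 3.28-fold the mean of the other Ezh2 libraries and 4.96-fold the GFP mean. In the 5 libraries the log2 fold change was 0.61 (SE 0.12, edgeR adjusted p = 0.000518). It was close to the fold change threshold of 0.58 on the log2 scale, and fell below it without GFP replicate 3 (0.56) or without Ezh2 replicate 1 (0.49). In all 6 libraries it was 1.47 (SE 0.58, edgeR adjusted p = 0.208).

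Genes that work with Myc were then compared. Of 11 paralogs, partners and antagonists of Myc, 11 were tested and 0 were called in the 5 libraries by edgeR, DESeq2 or limma-voom, where 3 had an edgeR p below 0.05 before adjustment and 1 after it. *Mga*, which competes with Myc for its partner Max, was the most abundant, at 247 ± 12.8 CPM (SD, n = 3) in GFP and 225 ± 5.99 CPM (SD, n = 2) in Ezh2 libraries. Of 20 Myc-activated genes of ribosome production and growth, 0 were called by any of these tools, 12 had an edgeR p below 0.05 before adjustment and 7 after it, with a median log2 fold change of 0.14. *Ldha*, a glycolytic enzyme and the most abundant of them, was 272 ± 5.87 CPM (SD, n = 3) in GFP and 296 ± 3.77 CPM (SD, n = 2) in Ezh2 libraries. Their summed level was 1480 to 1551 CPM in GFP libraries, 1659 and 1672 CPM in Ezh2 replicates 1 and 2, and 2776 CPM in Ezh2 replicate 3. In Ezh2 replicate 3, 17 of the 20 genes were at their highest of the 6 libraries, as were 24.8% of all tested genes. For example, *Odc1*, the first enzyme of polyamine synthesis, was at 348 CPM there and between 104 and 125 CPM in the other libraries, an example chosen after its values were seen.

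Other lists moved in the same library as *Myc*. Summed regulatory T cell genes were 391 to 420 CPM in GFP libraries, 424 and 481 CPM in Ezh2 replicates 1 and 2, and 2346 CPM in Ezh2 replicate 3, with all 12 genes at their highest there and none of them at 0. Summed T cell markers were 619 to 658, 769 to 813 and 1559 CPM, with all 14 at their highest in that library. Summed proliferation genes were 148 to 170, 186 to 213 and 326 CPM. The part of these cells in the *Myc* level was not tested.

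GAP-43 and CAP-23 are acidic proteins at the inner face of the growth cone membrane, where they regulate actin, and both are classical markers of axon growth. Neither was called. *Gap43* (ENSMUSG00000047261, chromosome 16, 42248442 to 42340651, minus strand) was at 25.4, 26.4 and 26.6 CPM in the 3 control libraries and at 23.4, 24.8 and 20.3 CPM in Ezh2 libraries 1 to 3. Each Ezh2 library was a little below each GFP library, but the log2 fold change of -0.11 (SE 0.09, edgeR adjusted p = 0.45) did not pass. *Basp1* (ENSMUSG00000045763, chromosome 15, 25363277 to 25413764, minus strand) was at 54.9, 58.6 and 54.9 CPM in GFP and at 62.2, 62.3 and 47.4 CPM in Ezh2 libraries 1 to 3. Ezh2 replicates 1 and 2 were above the control group and Ezh2 replicate 3 was below it. The log2 fold change was 0.16 (SE 0.07) in the 5 libraries (edgeR adjusted p = 0.0889), and 0.07 (SE 0.10) in all 6 (edgeR adjusted p = 0.709). It was -0.13 in the 5 libraries when they were scaled by RGC marker counts.

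Since both values come from the same library, the ratio of the pair does not depend on scaling. Per length, *Gap43* made up 38.1% ± 0.88 (SD, n = 3) of the summed *Gap43* and *Basp1* level in GFP libraries and 34.6% ± 1.49 (SD, n = 3) in Ezh2 libraries. The libraries did not overlap, from 37.3% to 39.1% against 33.1% to 36.1%. The exact permutation test over 6 libraries gave a two-sided p of 0.1, the smallest it can give, and 0.125 after Benjamini-Hochberg adjustment over the 5 such shares computed.

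Among 15 other growth cone proteins, 14 were tested and 2 were called, both higher, *Stmn2* and *Tubb3*. Before adjustment 12 had an edgeR p below 0.05, of which 4 were lower, and 10 had one after adjustment. *Stmn2*, a microtubule regulator of growing axons, was at 3.11, 2.72 and 3.42 CPM in GFP and at 4.38, 6.19 and 4.92 CPM in Ezh2 libraries 1 to 3, a log2 fold change of 0.79 (SE 0.22, edgeR adjusted p = 0.00999). *Tubb3*, a neuronal tubulin, was at 6.02, 6.57 and 7.65 CPM in GFP and at 10.9, 11.0 and 11.6 CPM in Ezh2 libraries 1 to 3, a log2 fold change of 0.71 (SE 0.15, edgeR adjusted p = 0.000628). The most abundant, *Gpm6a*, a neuronal membrane glycoprotein, was lower by less than the threshold, at -0.23 (SE 0.06) on the log2 scale. The median of the list was 0.21.

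*Sprr1a* encodes a small proline-rich protein of the skin barrier that injured sensory neurons make in large amounts and that favours outgrowth. *Sprr1a* (ENSMUSG00000050359, chromosome 3, 92483952 to 92485895, minus strand) had 14, 35 and 58 counts in GFP replicates 1 to 3, or 0.458, 1.11 and 1.89 CPM. It had 89, 104 and 122 counts in Ezh2 replicates 1 to 3, or 2.76, 2.97 and 3.39 CPM. The groups did not overlap, and the control group itself spread widely, from the lowest of its libraries to the highest, around a mean of 1.15 ± 0.716 CPM (SD, n = 3), whereas the Ezh2 libraries lay close together. The log2 fold change was 1.33 (SE 0.39) in the 5 libraries (edgeR adjusted p = 0.0206), and 1.44 (SE 0.43) in all 6 (edgeR adjusted p = 0.089). The adjusted p also rose above 0.05 without GFP replicate 2 (0.0947), Ezh2 replicate 1 (0.0733) or Ezh2 replicate 2 (0.126). Without GFP replicate 1 or 3 the call held, with log2 fold changes of 0.95 and 1.88.

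The other small proline-rich genes were hardly detected at this depth. Of 15, 14 had 0 counts in all 6 libraries, which allows up to 0.0834 to 0.0981 CPM per library (3 counts, counting error only), and *Sprr2b* had 3 counts in Ezh2 replicate 3 alone. No 50-base stretch of the *Sprr1a* transcripts, nor of those of the other 9 genes, occurs in the same orientation in transcripts of another gene of the GENCODE annotation. The reverse orientation, in which *Sox4* and *Gadd45a* overlap antisense genes, was not compared.

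*Ecel1* (also known as DINE) encodes a membrane peptidase of the neprilysin family that is induced by nerve injury. *Ecel1* (ENSMUSG00000026247, chromosome 1, 87147655 to 87156521, minus strand) was at 6.41, 9.57 and 8.004 CPM in the 3 control libraries and at 10.4, 11.8 and 10.3 CPM in Ezh2 libraries 1 to 3. The Ezh2 libraries were all above the control group, by a margin smaller than the spread within it. The log2 fold change of 0.48 (SE 0.15, edgeR adjusted p = 0.0244) was below the fold change threshold, and in all 6 libraries the edgeR adjusted p was 0.132. Without GFP replicate 2 the change was 0.63, past both thresholds (edgeR adjusted p = 0.0066). The edgeR adjusted p rose above 0.05 without GFP replicate 1 (0.114, at a log2 fold change of 0.35), GFP replicate 3 (0.065) or Ezh2 replicate 2 (0.238, at 0.38). Of 6 related peptidases 4 were tested and 0 were called by edgeR, DESeq2 or limma-voom, with 1 at an edgeR p below 0.05 before adjustment and 0 after it. *Ece1*, the endothelin-converting enzyme, was the most abundant, at 121 ± 3.21 CPM (SD, n = 3) in GFP and 108 ± 11.0 CPM (SD, n = 2) in Ezh2 libraries.

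GADD45 proteins are small acidic stress proteins that bind the kinase MTK1 (encoded by *Map3k4*), PCNA and p21, and that have been tied to active DNA demethylation. Of the 3 genes, *Gadd45g* had the largest change. *Gadd45g* (ENSMUSG00000021453, chromosome 13, 51846678 to 51848468, plus strand) was at 12.7, 12.1 and 12.8 CPM in the 3 control libraries and at 27.4, 30.8 and 31.2 CPM in Ezh2 libraries 1 to 3. Every Ezh2 library was more than 2-fold above every GFP library. The means were 12.5 ± 0.366 CPM (SD, n = 3) and, in Ezh2 replicates 1 and 2, 29.1 ± 2.43 CPM (SD, n = 2). On the log2 scale the change was 1.22 (SE 0.10) in the 5 libraries (edgeR adjusted p = 1.28e-10), and 1.29 (SE 0.11) in all 6 (edgeR adjusted p = 0.000581).

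*Gadd45a* (ENSMUSG00000036390, chromosome 6, 67035096 to 67037457, minus strand) was at 18.4, 17.3 and 16.9 CPM in GFP and at 22.2, 24.5 and 26.3 CPM in Ezh2 libraries 1 to 3. The groups were apart and the adjusted p passed, but the change did not reach 1.5-fold, at 0.43 (SE 0.10) in the 5 libraries and 0.52 (SE 0.11) in all 6 on the log2 scale (edgeR adjusted p = 0.00169 and 0.0343). Without Ezh2 replicate 2 its edgeR adjusted p was 0.0652. It shares exonic sequence with an antisense gene, *E230016M11Rik*, which was at 5.50, 6.00 and 6.12 CPM in GFP and at 5.31, 5.54 and 4.73 CPM in Ezh2 libraries. *Gadd45b* (ENSMUSG00000015312, chromosome 10, 80930073 to 80932204, plus strand) was at 24.8, 22.1 and 21.9 CPM in GFP and at 25.8, 28.1 and 32.9 CPM in Ezh2 libraries 1 to 3. The lowest Ezh2 library was just above the highest GFP library. The log2 fold change of 0.24 (SE 0.09, edgeR adjusted p = 0.0605) did not pass, and it was -0.047 with scaling by RGC marker counts, which moved the median of all genes to -0.30. Its edgeR adjusted p fell below 0.05 without GFP replicate 1 (0.0313) or Ezh2 replicate 1 (0.0481), at changes below the fold change threshold.

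Within the family, the share of *Gadd45g* was larger in each Ezh2 library. Per length, *Gadd45g* took 29.3%, 30.4% and 31.9% of the summed level of the 3 genes in GFP libraries and 44.7%, 45.4% and 42.8% in Ezh2 libraries. *Gadd45b* took 41.1% ± 1.11 (SD, n = 3) in GFP and 31.7% ± 1.41 (SD, n = 3) in Ezh2 libraries, and *Gadd45a* took 28.3% ± 0.432 and 24.0% ± 0.0966 (SD, n = 3). In the control group *Gadd45b* was the most abundant of the 3, and in the Ezh2 libraries *Gadd45g* was. None of the 3 shares overlapped between groups, and each gave an exact two-sided permutation p of 0.1, the smallest that 3 against 3 libraries allow, or 0.125 after adjustment over 5 shares.

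Partners of GADD45 proteins were compared next. Of 16 such genes, 16 were tested, 1 was called higher and 4 had an edgeR adjusted p below 0.05, with a median log2 fold change of 0.13. *Cdkn1a*, which encodes the cell cycle inhibitor p21, was at 8.51, 8.72 and 8.20 CPM in GFP and at 13.3, 13.7 and 11.4 CPM in Ezh2 libraries 1 to 3. The groups did not overlap, with a log2 fold change of 0.69 (SE 0.13, edgeR adjusted p = 0.000163). *Mapk14*, the p38 stress kinase, was at 184 ± 3.41 CPM (SD, n = 3) in GFP and 182 ± 0.888 CPM (SD, n = 2) in Ezh2 libraries.

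Promoter sequences of the strongest risers and of the other *Gadd45* genes are shown, because these paralogs changed by different amounts. The sequences are the 250 bases before the RefSeq start site (GRCm38.p6), 5′ to 3′ on the gene's strand. Capitals mark matches on either strand to 6 motifs. The motif of AP-1, a dimer of Fos and Jun proteins, was searched as TGANTCA, and that of CREB as TGACGTCA. The E-box, which Myc and Max can bind, was CACGTG, and the GC box was GGGCGG. Of the core promoter motifs, the TATA box was TATAAA. The last, which nuclear factor Y binds, was CCAAT.
Sprr1a, chr3:92485882-92486131, minus strand: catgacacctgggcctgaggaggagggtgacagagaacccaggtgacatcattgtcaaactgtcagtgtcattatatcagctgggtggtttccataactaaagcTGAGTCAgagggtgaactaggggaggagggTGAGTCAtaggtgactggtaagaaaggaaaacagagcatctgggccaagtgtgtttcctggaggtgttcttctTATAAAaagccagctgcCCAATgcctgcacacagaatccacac
Gadd45g, chr13:51846425-51846674, plus strand: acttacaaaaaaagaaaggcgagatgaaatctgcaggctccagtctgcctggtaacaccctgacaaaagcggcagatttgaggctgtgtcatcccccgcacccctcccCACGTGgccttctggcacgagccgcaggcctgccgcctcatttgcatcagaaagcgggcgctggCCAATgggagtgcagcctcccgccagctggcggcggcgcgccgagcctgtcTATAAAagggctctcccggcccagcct
Gadd45b, chr10:80929841-80930090, plus strand: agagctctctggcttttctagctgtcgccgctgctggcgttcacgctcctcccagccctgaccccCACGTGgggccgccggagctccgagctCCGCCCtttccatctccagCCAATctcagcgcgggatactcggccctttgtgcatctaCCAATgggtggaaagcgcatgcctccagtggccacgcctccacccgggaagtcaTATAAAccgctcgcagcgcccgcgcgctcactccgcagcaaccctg
Gadd45a, chr6:67037408-67037657, minus strand: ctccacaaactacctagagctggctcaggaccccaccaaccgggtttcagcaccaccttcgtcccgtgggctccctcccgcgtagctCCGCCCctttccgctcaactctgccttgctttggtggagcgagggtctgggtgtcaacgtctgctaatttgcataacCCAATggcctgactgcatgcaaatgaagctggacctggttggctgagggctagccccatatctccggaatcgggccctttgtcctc

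The *Sprr1a* window held AP-1 matches beginning 146 and 116 bases before the start and a TATA box at 43 bases, and it held no CpG at all. An AP-1 match was present in 6.75% of all 32851 windows, and in 1 of the 8 members' windows that the RefSeq table held (those of *Myc* and *Gap43* were not found in it). The *Gadd45g* and *Gadd45b* windows each had an E-box, at 142 and 185 bases, and a TATA box, at 27 and 46 bases, and each of the 3 *Gadd45* windows had a CCAAT box. An E-box was present in 6.02%, a TATA box in 12.4% and a CCAAT box in 33.8% of all windows. *Gadd45a* had a GC box and neither an E-box nor a TATA box. No member window held a CRE match, as found in 1.55% of all windows. GC content ran from 49.6% in *Sprr1a* to 78.8% in *Basp1*, around a median of 52.4% over all windows, and the ratio of observed to expected CpG ran from 0 in *Sprr1a* and 0.188 in *Ecel1* to 0.873 in *Gadd45b* and 1.05 in *Basp1*, around a median of 0.373. These letters describe the windows and do not show binding.

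The 10 genes spanned a wide range of abundance. Per kilobase of exon in the control group, *Basp1* was the highest at 27.9 ± 1.08 RPKM (SD, n = 3), followed by *Gap43* at 17.2 ± 0.421, *Gadd45b* at 14.4 ± 1.03, *Gadd45g* at 10.7 ± 0.312 and *Gadd45a* at 9.93 ± 0.458 RPKM. *Sox4* was at 4.83 ± 0.358, *Myc* at 3.60 ± 0.223, *Ecel1* at 2.28 ± 0.452, *Sprr1a* at 1.43 ± 0.888 and *Sox11* at 0.518 ± 0.0315 RPKM. In this order *Ecel1* and *Sprr1a* lay within their joint spread. In Ezh2 replicates 1 and 2 *Gadd45g*, at 24.8 ± 2.07 RPKM (SD, n = 2), was second only to *Basp1*, at 31.0 ± 0.0291 RPKM (SD, n = 2). The most abundant member of the control group, *Basp1*, and the next, *Gap43*, had the smallest changes in absolute size. The level at which *Sox11* was found exceeded that of 16.2% of all tested genes, and that of *Basp1* exceeded 93.0%.

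Ordered by log2 fold change in the 5 libraries, *Sprr1a* and *Gadd45g* led, and their difference of 0.10 was smaller than its SE of 0.40. *Gadd45g* and the next gene, *Sox4*, differed by 0.51 with an SE of 0.13. From *Sox4* through *Sox11*, *Myc*, *Ecel1* and *Gadd45a*, neighbours differed by 0.036 to 0.12, less than the SE of each difference. These SEs treat the genes as independent, which genes of the same libraries are not.

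Other regeneration-associated genes were examined for comparison. Of 30 named genes 29 were tested, 4 were called higher, 1 was called lower and 24 were not called, with a median log2 fold change of 0.10. Those higher were *Atf3*, *Jun*, *Npy* and *Socs3*, of which the study had singled out all but *Socs3* in these libraries. *Atf3*, a stress transcription factor of injured neurons, was at 19.95, 17.4 and 19.4 CPM in GFP and at 33.9, 30.3 and 44.3 CPM in Ezh2 libraries 1 to 3, a log2 fold change of 0.77 (SE 0.09). *Jun*, its partner in AP-1, rose from a mean of 231 ± 6.47 CPM (SD, n = 3) to a mean of 349 ± 19.7 CPM (SD, n = 2), and *Npy*, a neuropeptide, from 2.82 ± 0.179 to 4.81 ± 0.176 CPM. *Socs3*, an inhibitor of cytokine signalling that limits optic nerve regeneration, rose as well. It was at 107, 106 and 96.5 CPM in GFP and at 182, 183 and 192 CPM in Ezh2 libraries 1 to 3, a log2 fold change of 0.83 (SE 0.05, edgeR adjusted p = 1.34e-12).

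*Gfra1*, a receptor for the neurotrophic factor GDNF, fell. It was at 14.4, 12.6 and 14.4 CPM in GFP and at 7.14, 8.82 and 4.59 CPM in Ezh2 libraries 1 to 3, a log2 fold change of -0.77 (SE 0.13, edgeR adjusted p = 7.72e-05). *Stat3*, which carries cytokine signals to the nucleus and was the most abundant gene not called, was at 427 ± 10.4 CPM (SD, n = 3) in GFP and 465 ± 7.04 CPM (SD, n = 2) in Ezh2 libraries (edgeR adjusted p = 0.0553). In all 6 libraries 5 genes of the list were called higher and 1 lower. In the 5 libraries 19 of the 29 had a log2 fold change above 0, beside 48.7% of all tested genes.

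**Figure D3:**
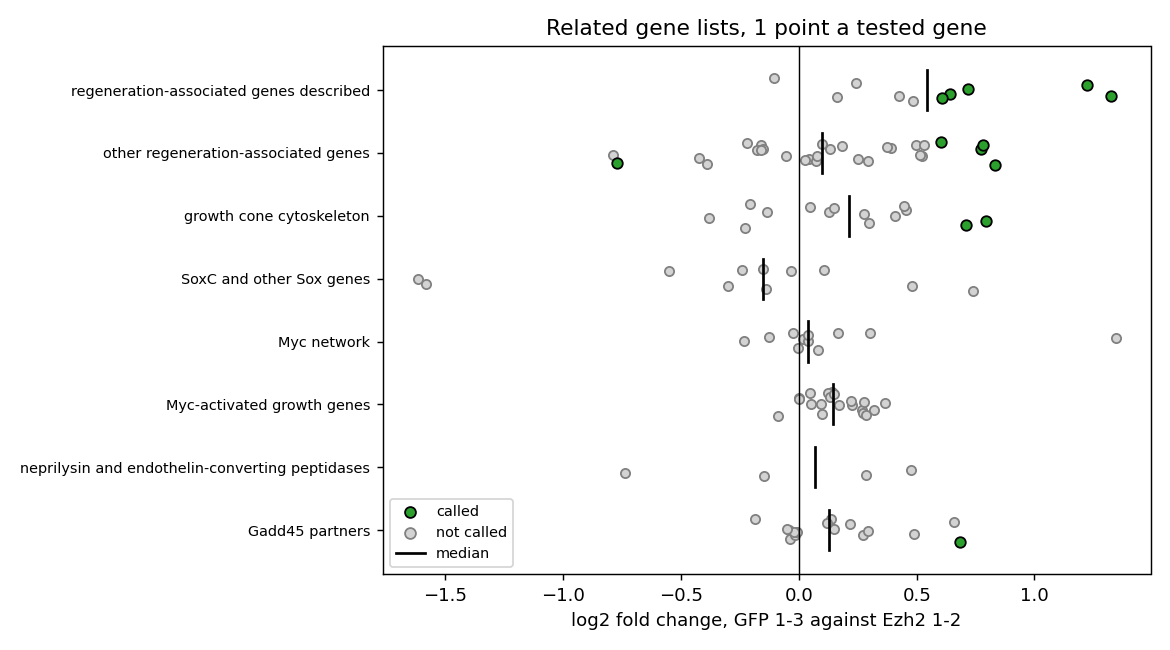
Log2 fold change of Ezh2 replicates 1 and 2 against GFP (horizontal axis) for each tested gene of the related lists (rows), with called genes in green, the rest in grey and a black line at the median of each list. The median of the 10 genes described is 0.55, and those of the 7 related lists lie between -0.15 and 0.21.

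Markers of other retinal and immune cells moved between the same groups. Summed macrophage markers were 655 to 735 CPM in GFP libraries, 2067 and 2610 CPM in Ezh2 replicates 1 and 2 and 1773 CPM in Ezh2 replicate 3, with 5 of 9 tested markers called higher. The log2 fold changes of these markers ran from 0.49 to 2.19 with a median of 0.66, so the sum does not describe each marker. Summed rod markers were 427 to 503, 750 to 800 and 444 CPM, with 4 of 10 called higher, and cone markers 62.3 to 66.8, 95.5 to 111 and 64.3 CPM, with 8 of 10. RGC markers were 156 to 162, 187 to 202 and 200 CPM, with 3 of 13 called higher (*Tubb3*, *Nefh* and *Ebf3*), and without *Thy1* their sum was 68.9 to 71.4 CPM in GFP and 85.9 to 93.4 CPM in Ezh2 libraries. T cell markers had 0 of 14 called by edgeR, DESeq2 or limma-voom, although 14 had an edgeR adjusted p below 0.05, and regulatory T cell genes 1 of 12. Microglia markers had 1 of 10 called higher and 1 lower. Muller glia markers were mostly lower by less than the fold change threshold, with a median log2 fold change of -0.23, 7 of 10 below the GFP libraries without overlap and 8 of 10 at an edgeR adjusted p below 0.05, although the 1 marker called, *Apoe*, was higher. Amacrine markers had a median of -0.35, with 5 of 8 below the GFP libraries without overlap, 1 called lower and 1 higher, and their sum was 74.2 to 83.4 CPM in GFP libraries and 52.4 to 57.6 CPM in the 3 Ezh2 libraries. Among all tested genes, 23.4% lay below the GFP libraries without overlap. Astrocyte markers had 1 of 6 called, *Gfap*, which was higher, and a median of -0.025. Proliferation genes had 1 of 10 called higher. Bipolar (10 tested), endothelial and mural (10) and B and plasma cell (9) markers had 0 called by these tools, with 2, 2 and 3 at an unadjusted edgeR p below 0.05. Summed Muller glia markers were 27927 to 28568 CPM in GFP libraries, 26069 to 27730 CPM in Ezh2 replicates 1 and 2 and 21498 CPM in Ezh2 replicate 3, and microglia markers 1253 to 1395, 1562 to 1634 and 1109 CPM. Summed bipolar markers were 649 to 657, 592 to 654 and 533 CPM, endothelial and mural markers 3589 to 3755, 3331 to 3353 and 2671 CPM, and B and plasma cell markers 610 to 653, 634 to 669 and 422 CPM. No marker of these lists was at 0 in all 6 libraries. The part of these cells in the levels of the 10 genes was not tested.

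**Figure D4:**
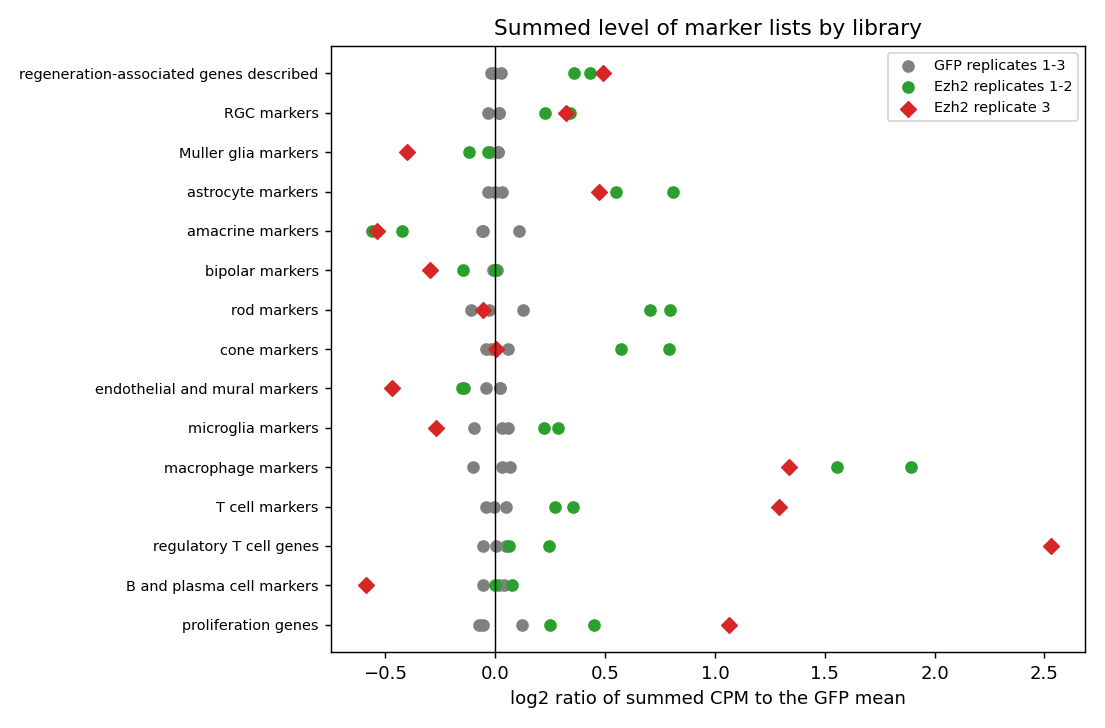
Log2 ratio of the summed CPM of each list to the GFP mean (horizontal axis) for the 10 genes described and the marker lists (rows), with GFP replicates 1 to 3 in grey, Ezh2 replicates 1 and 2 in green and Ezh2 replicate 3 as a red diamond. Ezh2 replicate 3 lies far to the right for regulatory T cell genes, at 2346 CPM, and near the GFP libraries for rod and cone markers, whereas for RGC markers it lies among the other Ezh2 libraries.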

How the data were processed

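RNA-Seq libraries were made by the authors from total RNA of FACS-sorted retinal cells with a stranded kit, per the labels. The deposited table gives, for each Ensembl gene, the raw counts of 6 libraries. Per the submitters' processing notes, STAR 2.7.0d and build GRCm38 were used. The counting program, annotation release and strand setting are not given in the sources used here, so a gene and its antisense partner may share reads. All 6 columns matched samples by label, and 0 were left out. Of 55573 identifiers, 55480 matched GENCODE M21 (GRCm38), which gave symbols, coordinates and exon lengths. The name of the library that the study excluded is inferred from the columns of its heatmaps.

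Low counts were removed by filterByExpr. Libraries were scaled by TMM and compared with the robust quasi-likelihood test of edgeR 4.0.16 (R 4.3.3), with group as the only term. P values were two-sided and Benjamini-Hochberg adjusted over all tested genes, and SE was taken from the F statistic. CPM and RPKM used library totals. Alternatives were all 6 libraries, each of the 5 libraries left out, a block for the replicate number, limma-voom (limma 3.58.1), DESeq2 1.42.0, other scaling, filters and thresholds. A fit without robust estimation and scaling by RGC marker counts were added after seeing the data. On simulated counts of 19810 genes with the library sizes of the 5 libraries, 100 of 100 genes changed 2-fold were recovered, with 2 false calls. Recovery of changes below 2-fold, such as those called for *Sox4*, *Sox11* and *Myc*, was not tested. No library was a copy of another within sampling noise, so each counted in n.

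The 10 genes and all gene lists were chosen with earlier results of these data known, and lists are described by counts and medians. Besides the 10 genes, the called genes of each related list were named (at most 6), with its most abundant gene not called, and, for each of the 10 genes, the gene of at least 100 counts on average with the most similar pattern. Promoter windows came from RefSeq (GRCm38.p6). Pictures were drawn with matplotlib 3.10.9. Intervals and floors cover counting error only, because reads carry no molecular identifiers.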

Additional observations from a re-analysis of the deposited data

Results flagged for a closer look

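*Myc* reached 48.5 CPM in Ezh2 replicate 3, a library that the main comparison does not use, above the 9.11 to 10.3 CPM of the control group and the 13.5 and 16.1 CPM of the other Ezh2 libraries. The part of the immune cell genes that were high in the same library was not tested.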

How the results depend on the processing

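Of the 10 genes, *Gadd45g* was called under each of 20 alternatives, and *Gap43* was called under none and stayed below 0. *Sox4* lost its call with glmTreat at a fold change of 1.5 and with scaling by RGC marker counts. *Sox11* lost its call under 8 alternatives, *Myc* under 9 and *Sprr1a* under 6, while *Ecel1* gained one under 2 and *Gadd45a* under 1. The 770 called genes became 498 with all 6 libraries, 3605 by adjusted p alone (2050 higher, 1555 lower), 180 with glmTreat, and 624 to 794 when 1 of the 5 libraries was left out, where a lone Ezh2 library was assumed to vary like the GFP group. Called members, 5, became 2 with all 6 libraries, 1 with glmTreat and 2 to 5 with a library left out, lowest without Ezh2 replicate 1. Over those fits members called lower stayed at 0, their median ran from 0.51 to 0.63, and the other regeneration-associated genes called higher ran from 3 to 4, with 1 lower in each (range 1 to 1). By adjusted p alone 11 of those were called higher, and with glmTreat 1 higher and 0 lower.

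Libraries that share a number did not deviate together, with correlations of -0.039, -0.034 and -0.024, so no pairing by replicate number was seen. The deviations were taken from group means that include Ezh2 replicate 3, which dominates those of the Ezh2 group. The check therefore cannot settle whether libraries were paired. With the replicate block, 3 members were called in the 5 libraries and 3 in all 6, where 396 genes were called. No sample correlated best with its own number.

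Scaling by RGC marker counts, of which *Thy1* made up at least 52.8%, moved the median of all genes to -0.30 and of the members to 0.25 (0.18 with all 6 libraries). It called 2238 genes (240 higher, 1998 lower), and 2626 with all 6, with 2 and 1 members higher, 0 and 1 other regeneration-associated genes higher, and 3 and 5 lower. *Basp1* turned to -0.13 and -0.26, and *Gadd45b* was at -0.047 and, with all 6 libraries, 0.039. These stayed above the shifted medians of all genes, -0.30 and, with all 6 libraries, -0.33. *Gap43* lay below them, at -0.40 in the 5 libraries and -0.49 in all 6. Its edgeR adjusted p was 0.000912 and 0.0129, but the change was short of the fold change threshold. The sort took any live cell with CD90.2, so the *Thy1* counts in this scaling need not come from RGCs. Which cells supplied them was not tested. The cause of the other changes was not tested.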

Other observations

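For each of the 10 genes, the gene with the most similar pattern over the 6 libraries was sought among 13762 genes, by Pearson's r of log2 CPM. These were *Nlrc4* for *Sox4* (r = 0.998), *Sdf2l1* for *Sox11* (0.996), *Sept1* for *Myc* (0.999), *Pcdhb11* for *Gap43* (0.999), *Ppfia4* for *Basp1* (0.997), *Mfsd10* for *Sprr1a* (0.997), *Wdr24* for *Ecel1* (0.995), *Cd48* for *Gadd45a* (0.999), *Cox7b* for *Gadd45b* (0.998) and *Dnase1l1* for *Gadd45g* (0.996). With 6 libraries in 2 groups such values are easily high. An r above 0.95 was shared with 1330 genes for *Myc* and with 22 for *Sprr1a*. The points share libraries and depth, and nothing about function follows from them.

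In the Sox family *Sox5*, which acts in several neuron types, was at 41.1, 48.4 and 42.3 CPM in GFP and at 28.9, 30.5 and 28.1 CPM in Ezh2 libraries 1 to 3. Its log2 fold change of -0.55 (SE 0.08) was just short of the fold change threshold (edgeR adjusted p = 1.13e-05), opposite in sign to *Sox4* and *Sox11*. *Mycn*, a paralog of *Myc* that is active in development, was at 0.294, 0.474 and 0.488 CPM in GFP and at 1.30, 0.828 and 1.39 CPM in Ezh2 libraries (edgeR adjusted p = 0.0524). Both were chosen after their values were seen.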
